A study of Mus musculus with 26 samples.

Results

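The cytosolic ribosomal protein genes were followed in single cells of the postnatal mouse retina. Members were all genes whose symbol in the array's annotation begins with Rps or Rpl and a digit, together with Rplp0, Rplp2 and Rpsa. Kinase genes with the Rps6k prefix, Rps19bp1 and probe sets annotated to several symbols were left out, and Rplp1 had no probe set of its own. Of 57 matching symbols 7 were removed, which left 50 member genes, 24 of the small and 26 of the large subunit, among 18193 genes on the array. RefSeq lists 48 members as protein coding and 2, Rps15a-ps6 and Rps4l, as pseudogenes.

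The cells came from mice homozygous for a floxed Notch1 allele on a C57BL/6 background, so both groups carry the floxed alleles. Retinas were electroporated in the living pup on postnatal day 0 and collected on day 3, and GFP-marked cells were picked by hand, 1 cell per array. The 13 control cells, labelled WT, had received CAG:GFP. The 13 cells labelled N1-CKO had received CAG:Cre, a recombinase under a broadly active promoter, with CALNL-GFP, a reporter that Cre switches on. Only electroporated cells are sampled, and GFP in the second group reports Cre activity rather than loss of Notch1. The labels name no animal, litter or session, so each group counts as 1 sample: all differences below compare these 26 cells, SDs are over cells, and no test between groups was made.

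A ribosome is built from ribosomal RNA and one copy of nearly every ribosomal protein, so their genes are transcribed together in every growing cell. Most of their messenger RNAs start with a cytosine followed by a run of pyrimidines, the 5′ terminal oligopyrimidine (TOP) motif, through which mTOR signalling and the RNA-binding protein Larp1 set their translation. Retinal progenitors divide while making neurons and glia, and leave the cell cycle to differentiate. Notch1 is a receptor that keeps progenitors from differentiating.

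A pyrimidine run near the annotated start site was common among members but not universal. Whether the transcript begins with the run was not tested. RefSeq promoter entries were available for 43 members, 51 start sites in all. The windows below run from 10 bases before to 20 bases from the annotated start, in the GRCm38.p6 build, with the longest run of C or T on the gene's strand in capitals. They were chosen to show long runs in members found in nearly every cell (Rpl27a, Rpl35, Rpl7a), the paralogs Rpl22l1 and Rpl22, and members that were rarely found (Rpl14, Rps6, Rps16).
Rpl27a: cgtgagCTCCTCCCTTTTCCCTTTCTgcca
Rpl35: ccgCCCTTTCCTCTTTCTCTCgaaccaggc
Rpl7a: CTCTTCTTTCTTTCTCCagcagccgagcaa
Rpl22l1: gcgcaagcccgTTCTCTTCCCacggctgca
Rpl22: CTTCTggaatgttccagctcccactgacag
Rpl14: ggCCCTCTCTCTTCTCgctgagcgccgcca
Rps6: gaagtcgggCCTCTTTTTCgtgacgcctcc
Rps16: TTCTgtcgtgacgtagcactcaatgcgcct
These windows lie at chr7:109519185-109519214 (+), chr2:39005112-39005141 (-), chr2:26910797-26910826 (+), chr3:28805498-28805527 (+), chr4:152324426-152324455 (+, the first of 2 entries for Rpl22), chr9:120571507-120571536 (+), chr4:86857348-86857377 (-) and chr7:28350679-28350708 (+). The run was 20 bases long in Rpl27a, 18 in Rpl35, 14 in Rpl14, 10 in Rpl22l1 and in Rps6, 5 in Rpl22 and 4 in Rps16. Between 20 bases before and 40 bases from the start, 29 of the 51 member start sites (56.9%) held a run of at least 8 pyrimidines, against 21.3% of 21262 start sites of all protein coding genes. The share was 56.4% for members found in at least 20 cells and 58.3% for the others, so the run did not separate bright from dim members. Over the whole entries of 300 bases, read on both strands, CCGGAAG stood in 41.2% of member entries against 11.6% of all. ATGGCG stood in 31.4% against 10.9%, TTTCC in 80.4% against 59.9%, and CTTTCC, which contains TTTCC, in 45.1% against 25.9%. A match is a string of letters and no evidence of binding.

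Signals are the deposited MAS5 intensities on the log2 scale, raised to a floor of 4.65, the pooled median. A gene was called detected in a cell when its probe set lay in the top 10% of that array, which is 4504 probe sets; the threshold ranged from 7.94 to 11.23 between arrays. By the signal of their 18S ribosomal RNA control, the arrays fell into a high 18S set (5 cells of each group) and a low 18S set (8 of each). The Gapdh 3′ to 5′ ratio, which grows with short cDNA, had a median of 1.79 in WT and 2.67 in N1-CKO cells and was at most 3 in 11 and 8 of them. Notch1 itself was at 12.00 ± 3.06 in WT cells (10 detected) and at 10.35 ± 4.21 in N1-CKO cells (8 detected), and whether its 3′ probe sets lie in the deleted part is not known here. Retinal progenitor markers had a median of 6 of 9 detected in WT and 4 in N1-CKO cells, and photoreceptor markers 2 and 6 of 9. Of 9 microglia and blood markers 7 were found in 0 cells, Ptprc among them, as were 4 of 6 endothelial and pericyte markers, Pecam1 among them, and 3 of 4 markers of astrocytes and pigment epithelium. Kdr, on the endothelial list, was an exception, with 9 WT and 3 N1-CKO cells, and its part in the results was not tested.

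Ribosomal protein genes were among the most regularly detected genes of the array. Detection in at least 20 of 26 cells was seen for 37 of 50 members (74.0%), against 3.23% of all genes. Detection in all 26 cells was seen for 26 members (52.0%), against 0.495% of all genes, so that members made up 28.9% of the 90 genes found in every cell. Of the 50 genes with the highest mean signal 27 were members. The members of highest mean signal were Rpl13a, a large subunit protein that can leave the ribosome to act in translational control, Rps7, Rps3a1, Rps9, Rpl7 and Rplp0. Their means over 26 cells lay between 15.87 and 16.11. Probe sets differ in affinity, so these values do not rank the transcripts by abundance.

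**Figure D1:**
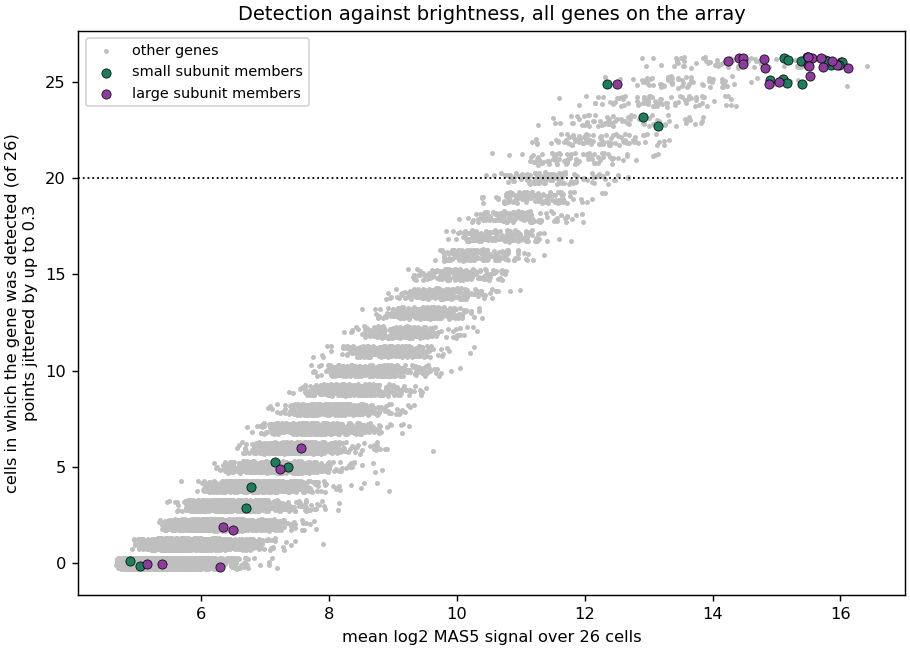
Number of cells in which each gene was detected, of 26, against its mean log2 MAS5 signal over the 26 cells; grey points are the other genes, coloured points the 50 members by subunit, and the dotted line marks 20 cells. The members form a bright group of 37 found in 23 to 26 cells and a dim group of 13 found in 0 to 6 cells.

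No member lay between these groups: the 37 widely detected members were found in at least 23 cells and the other 13 in at most 6. Each cell held a median of 38 detected members in both groups (WT 35 to 39, N1-CKO 32 to 39). Their signals stood close to the top of the array, since a median of 31.5 of the 37 widely detected members (range 14 to 36) were in the top 1% of their cell's probe sets. The average of these 37 genes in a cell was 14.95 ± 0.61 for WT and 15.19 ± 0.67 for N1-CKO. The difference, 0.25, is smaller than either SD, and it was -0.01 among high and 0.41 among low 18S arrays.

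The 13 dim members were Rps15a-ps6, Rps16, Rpl3l, Rpl39l and Rpl37, found in 0 cells, and Rpl14, Rpl12, Rps4l, Rps6, Rps27, Rpl39, Rps25 and Rpl7l1, found in 2 to 6. For comparison, 41.9% of all genes were found in 0 cells. A count of 0 of 13 cells still allows a share of up to 24.7% (exact binomial interval at 95%, counting error only). This group holds both pseudogenes and the tissue-restricted paralogs Rpl3l, known from muscle, and Rpl39l, known from male germ cells. It also holds core proteins that every ribosome needs, among them Rps16, with 5.00 ± 0.88 in WT and 5.09 ± 1.08 in N1-CKO cells. Rps6, the small subunit protein phosphorylated by S6 kinases, was found in 3 WT cells and 1 N1-CKO cell, with a lowest, median and highest signal of 4.65, 4.65 and 13.05 in WT and 4.65, 4.87 and 12.49 in N1-CKO cells. These values describe the probe sets and do not show that the transcripts were missing. For 8 of the 13 the symbol also stood on probe sets shared with other genes, which were left out by rule. Of 110 such shared probe sets with a member's symbol, 80 were detected in at least 20 cells. Probe set design differed between the groups of members: 12 of 13 dim members were read by a probe set with the plain ending _at, and 33 of 37 widely detected ones by an ending for probes that match several transcripts (20 with _a_at, 11 with _x_at and 2 with _s_at). The part of this difference in the result was not tested beyond leaving those probe sets out. Without _x_at and _s_at probe sets 45 members remained and 29 were found in at least 20 cells; without _a_at as well, 27 remained and 7 were.

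**Figure D2:**
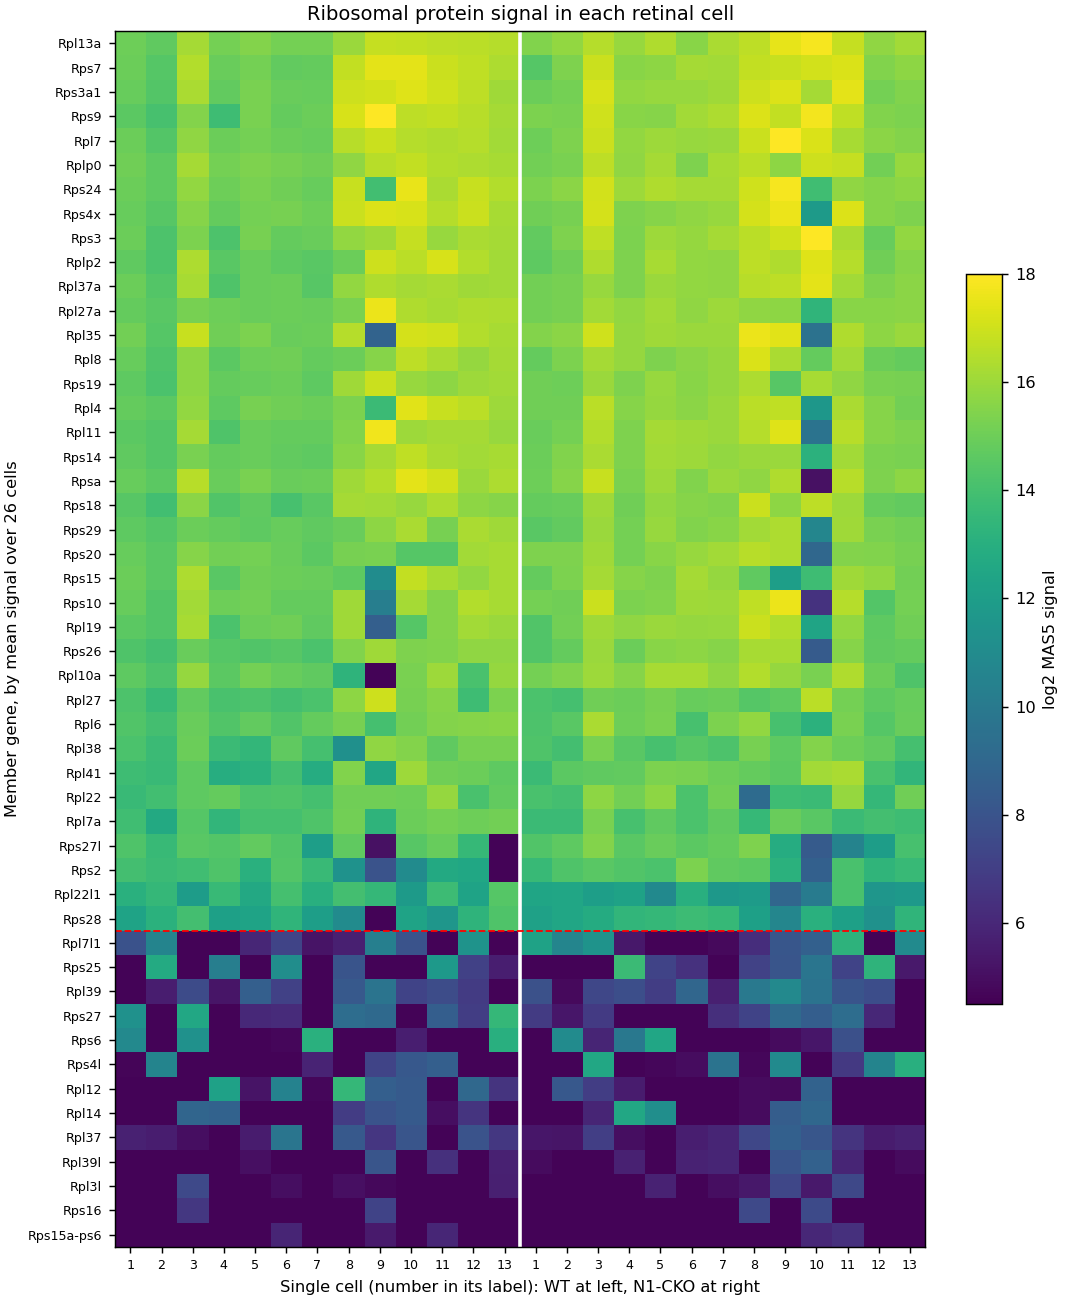
Log2 MAS5 signal of the 50 members (vertical, by mean signal) in the 26 cells (horizontal), with WT cells left of the white line and N1-CKO cells right of it; the red dashed line separates the 37 widely detected members from the 13 others. WT cell 9 and N1-CKO cell 10 show most of the gaps in the upper block.

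Missing values among the widely detected members were few and gathered in few cells. Of 962 pairs of such a gene and a cell, 15 (1.56%) were below the detection threshold, against 12.8% for the other 551 genes detected in at least 20 cells. These others are dimmer, with a median of their mean signals of 12.45 against 15.41 for the members. Of the 67 other genes with a mean of at least 14, a cell held 98.2% on average, so bright genes of other kinds were also rarely missed. Of the member pairs, WT cells missed 1.46% and N1-CKO cells 1.66%. All 15 fell in 4 cells: 7 in N1-CKO cell 10, 5 in WT cell 9, 2 in WT cell 13 and 1 in N1-CKO cell 9. The other 22 cells had all 37 genes.

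In N1-CKO cell 10 the missing genes were mainly of the small subunit. Rps2, Rps10, Rps20, Rps26, Rps27l and Rpsa were below threshold there, with Rpl35 the only one of the large subunit. Rpl11 stood just above the threshold of 9.64, at 9.65 against a median of 15.99 in N1-CKO cells. Rpsa, a small subunit protein also known as a laminin receptor, was at 5.12 in this cell and Rps10 at 6.50, while the median of Rpsa in N1-CKO cells was 15.72 and that of Rps10 was 15.46. The mean of the small subunit minus the mean of the large subunit was -1.92 in this cell, against -0.03 ± 0.48 over all 26 cells. In WT cell 9 the missing genes came from both subunits: Rpl10a and Rps28 were at the floor of 4.65, Rps27l at 5.12, Rps2 at 7.93 and Rpl19 at 8.60. In WT cell 13 Rps2 and Rps27l were both at 4.65. Rpl22l1 was at 8.97 in N1-CKO cell 9. WT cell 9 and N1-CKO cell 10 also had the fewest other genes: of the 551 others detected in at least 20 cells they held 70.8% and 59.2%, against a median of 88.7% over all cells. Of the 67 other genes with a mean of at least 14 they held 88.1% and 79.1%, against a median of 100%. Both are high 18S arrays, and the part of this in the missing members was not tested.

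The spread between cells was small for most widely detected members. Their SD over 26 cells had a median of 1.02 on the log2 scale (0.67 to 2.90), against 2.42 for the 551 other widely detected genes. Most of this gap goes with brightness: among genes with a mean of at least 14, the median SD was 0.97 for 33 members and 1.13 for 67 other genes. The steadiest members were Rps19, a small subunit protein mutated in Diamond-Blackfan anaemia, Rplp0, Rpl7a, Rpl6 and Rpl8, with SDs between 0.67 and 0.72. Rps19 had a lowest, median and highest signal of 14.19, 15.69 and 16.92 in WT cells and of 14.51, 15.61 and 16.36 in N1-CKO cells, so that the N1-CKO cells lay within the range of the WT cells. The least steady were Rps27l, Rps2, Rpl10a, Rpsa and Rps10, with SDs of 2.90, 2.43, 2.23, 2.23 and 2.20. Each of these had at least 1 of the missing values described above. Leaving out WT cell 9 and N1-CKO cell 10 together lowered the median SD over all 50 members from 1.16 to 0.84.

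Members varied together over all 26 cells on the deposited scale, and much less after rescaling. The median Spearman correlation between pairs of widely detected members was 0.51 over 26 cells, against 0.02 for the other widely detected genes and 0.24 for those with a mean of at least 14. After quantile normalization, which gives every array the same distribution of signals, it was 0.13 for members and 0.03 for the other widely detected genes. On the deposited scale the median for members was 0.79 within the low 18S set and 0.04 within the high set. After quantile normalization it was 0.08 within the low and 0.23 within the high set. All genes of a cell share its array's scaling factor. The level of members relative to the other widely detected genes correlated with the array's own log2 detection threshold with r = -0.83 over the 26 cells, -0.88 among low and -0.19 among high 18S arrays. The low threshold of some arrays thus went with members bright relative to the other genes over all cells and in the low set, and much less in the high set. For the members' own mean level, r with the threshold was -0.37 over all cells, -0.66 in the low set and 0.23 in the high set. The part of the threshold in the shared variation was not tested. Probe sets of the same gene followed each other more closely: for 18 genes with several widely detected probe sets the median correlation was 0.84, from 0.39 in Rpl13a to 0.98 in Rps7.

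The study compared cells given Cre with control cells, to ask about Notch1, and ribosomal protein signal differed little between them. Among the 45 members detected in at least 2 cells, N1-CKO minus WT had a median of 0.23 on the log2 scale, against -0.04 over all 8280 genes so measured; 33 were higher and 12 lower. After quantile normalization the members' median was -0.002, so the small shift upwards depends on the scale between arrays. A difference of at least 1 downwards was seen for 3 of the 45 (6.67%), against 22.3% of all genes measured, and upwards for 4 (8.89%), against 19.1%. After quantile normalization 4 were lower and 4 higher by at least 1, against 21.4% and 18.9% of all genes measured. Because detection was counted over both groups together, Rpl12, Rpl14, Rps27 and Rps4l were measured through 1 group alone. The counts are therefore a description of the members that passed. Among the 37 widely detected members 1 was lower and 2 were higher by at least 1 (2.70% and 5.41%), against 15.1% and 12.9% of the 588 widely detected genes. The 588 include the members, and the 551 others are dimmer and spread more between cells, with a median SD of 2.42 against 1.02. The part of brightness and spread in these shares was not tested. Of these 37 members 28 were within 0.5 of 0. The groups overlapped in all 50 members, as they did in all 18193 genes. In 1 of the 45, Rpl22l1, the difference was larger than the larger SD, against 1.55% of all genes measured.

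**Figure D3:**
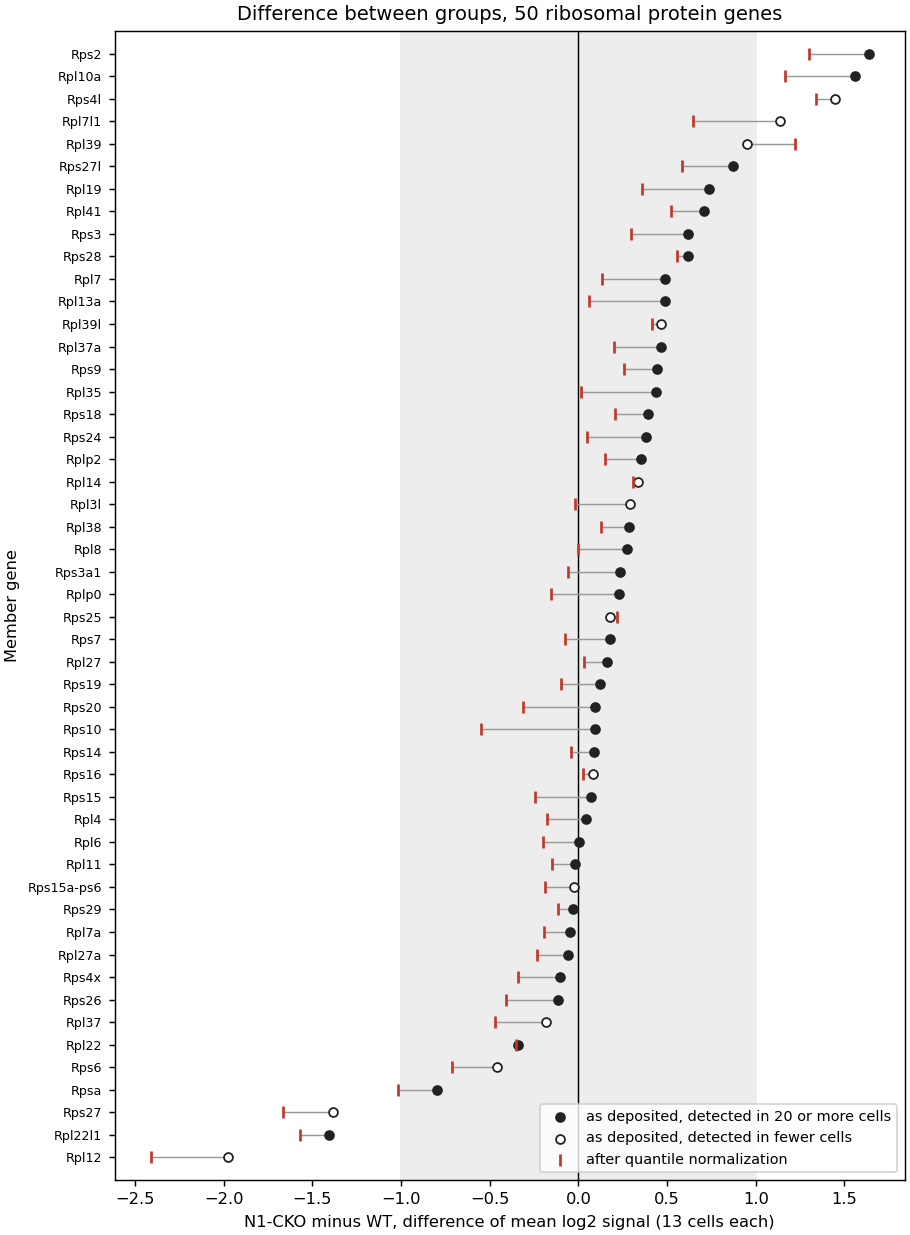
Difference of mean log2 signal, N1-CKO minus WT (13 cells each), for the 50 members; filled circles are members detected in at least 20 cells, open circles the others, red bars the same difference after quantile normalization, and the grey band spans -1 to 1. Widely detected members lie outside the band for Rpl22l1 at -1.41 and for Rps2 and Rpl10a at 1.64 and 1.56.

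The stalk of the large subunit, which recruits the translation factors that hydrolyse GTP, was read through Rplp0, its scaffold, and Rplp2, one of its acidic proteins. Rplp0 had a lowest, median and highest signal of 14.64, 15.78 and 16.79 in WT cells and of 15.11, 15.94 and 17.00 in N1-CKO cells. Rplp2 had 14.19, 14.97 and 17.19 in WT and 14.65, 15.79 and 17.32 in N1-CKO cells. The groups overlapped in both genes, and the differences of 0.23 and 0.36 were smaller than the SDs.

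Rpl22l1 was the widely detected member with the lowest difference. Its paralog Rpl22 is an RNA-binding ribosomal protein that is not essential for general translation, and Rpl22l1 can take its place. Rpl22l1 had a lowest, median and highest signal of 11.84, 13.51 and 14.45 in WT cells and of 8.97, 11.92 and 14.15 in N1-CKO cells. Most N1-CKO cells lay in the lower part of the WT range or under it, and the groups overlapped. Its means were 13.21 ± 0.82 and 11.80 ± 1.28 (SD, 13 cells each), a difference of -1.41. It was -1.63 among high and -1.27 among low 18S arrays, -1.61 in cells whose Gapdh ratio did not exceed 3, and -1.57 after quantile normalization. Leaving out each cell in turn gave -1.60 to -1.17. A difference at or below this value was also seen in 9.98% of the other 551 widely detected genes. Rpl22 had 13.65, 14.67 and 15.86 in WT and 9.20, 14.18 and 15.88 in N1-CKO cells. Its difference of -0.34 rests on the lone low value, in N1-CKO cell 8, and without that cell it was 0.08.

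Among members with higher means in N1-CKO cells, Rps2 and Rpl10a had the widest gaps, and both rest in part on single WT cells. Rps2, a small subunit protein near the messenger RNA entry channel, had a lowest, median and highest signal of 4.65, 13.07 and 14.40 in WT and of 8.64, 14.16 and 15.35 in N1-CKO cells. Its difference was 1.64, and 1.02 without WT cell 13. Rpl10a, a protein of the large subunit's other stalk, had 4.65, 14.71 and 16.02 in WT and 14.26, 15.77 and 16.42 in N1-CKO cells. In both genes the groups overlapped, and the lowest WT values stood far below the rest. Its difference was 1.56, and 0.77 without WT cell 9; it was 3.33 in the high 18S set, which holds that cell, and 0.45 in the low set. Rps27l, the paralog of Rps27 known as a p53 target, differed by 0.87, and by 0.20 without WT cell 13. Rpl19 differed by 0.73, and by 0.23 without WT cell 9. Rpl41, the smallest ribosomal protein, differed by 0.71, with 14.12 ± 1.10 in WT and 14.83 ± 0.83 in N1-CKO cells, and kept 0.57 to 0.87 when single cells were left out.

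**Figure D4:**
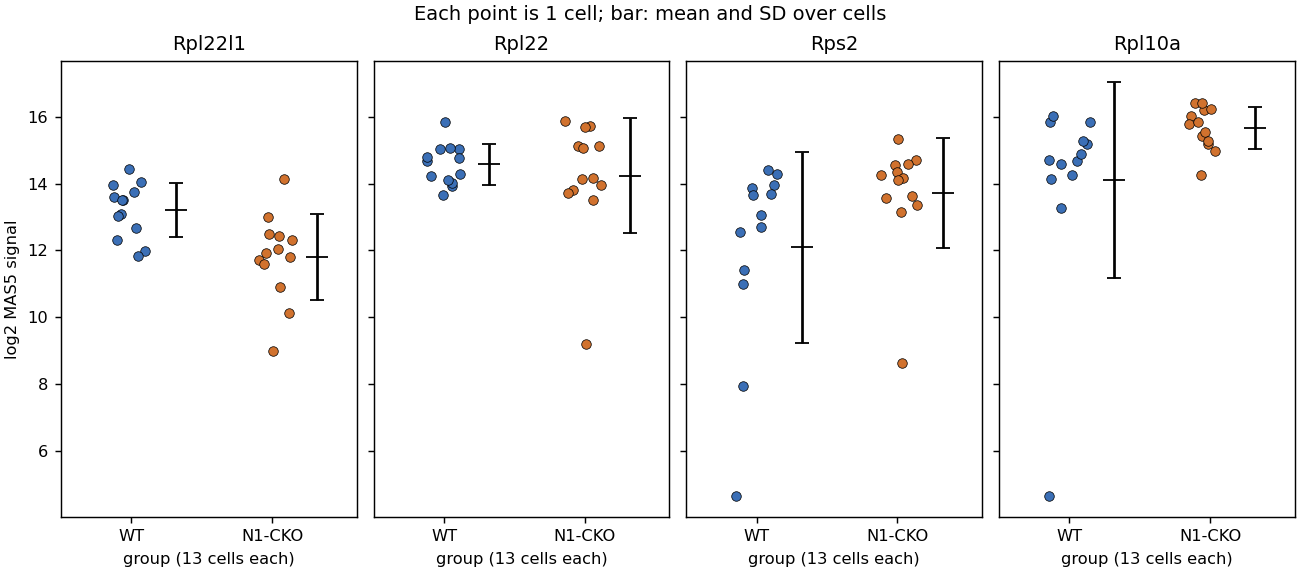
Log2 MAS5 signal of Rpl22l1, Rpl22, Rps2 and Rpl10a in each of 13 WT and 13 N1-CKO cells, with the mean and SD over cells as a bar beside the points. Rpl22l1 is spread lower in N1-CKO cells (mean 11.80 against 13.21), while the gaps of the other genes owe much to 1 or 2 cells near the bottom.

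On the lower side, after Rpl22l1, came Rpsa with -0.80, Rpl22, Rps26 with -0.11, Rps4x with -0.10 and Rpl27a with -0.06. Rpsa had 14.62, 15.96 and 17.46 in WT and 5.12, 15.72 and 16.86 in N1-CKO cells, and its difference was 0.03 without N1-CKO cell 10. Without that cell Rps26 differed by 0.42, Rps4x by 0.22 and Rpl27a by 0.12. Rpl27a was at -1.06 within the high 18S set and 0.57 within the low set. Among the dim members, Rpl7l1, a paralog of Rpl7 that acts in large subunit assembly, was found in 2 WT and 4 N1-CKO cells and differed by 1.14; the mean of its 3 probe sets differed by -0.59, so its direction depends on the probe set. The other dim members beyond a difference of 1, named after their values were seen, were Rpl12 with -1.97 (2 WT and 0 N1-CKO cells), Rps27 with -1.38 (5 and 0) and the pseudogene Rps4l with 1.45 (0 and 3). Rps27 differed by 0.49 in the high and -2.56 in the low 18S set.

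The subunits lay close together: the median difference was 0.15 over 22 small and 0.29 over 23 large subunit members. Fau, whose product ends in the ribosomal protein eS30, was found in all 26 cells and differed by 0.08. Of 15 other TOP transcripts of translation 13 were widely detected. Over the 15 the median difference was 0.02, made of -0.46 among high and 0.52 among low 18S arrays. By at least 1, 2 (13.3%) were lower and 1 (6.67%) higher, against 22.3% and 19.1% of all genes measured. Eif3f, a subunit of an initiation factor, was at 11.09 ± 3.83 in WT and 13.63 ± 2.00 in N1-CKO cells, and Pabpc1, the poly(A)-binding protein, at 11.59 ± 1.04 and 10.37 ± 1.41. Naca, a chaperone at the ribosome exit, differed by 0.83, and Hnrnpa1, a splicing regulator, by -1.20.

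Of 34 genes of ribosome biogenesis, which process ribosomal RNA and assemble the subunits, 1 was detected in at least 20 cells, a share near the 3.23% of all genes. Among the 31 measured in at least 2 cells, 10 (32.3%) were lower and 4 (12.9%) higher by at least 1 in N1-CKO cells. Of all genes measured 22.3% were lower and 19.1% higher by as much. The median over the 31 was -0.52. Among high 18S arrays that median was 0.34, and it was 0.19 in cells whose Gapdh ratio did not exceed 3, so its direction turned. Ncl, the nucleolar protein nucleolin, differed by -2.79, with 12 WT and 8 N1-CKO cells positive. Dkc1, the pseudouridine synthase of ribosomal RNA, differed by -1.90, Ubtf, a factor of RNA polymerase I, by -1.69, and Ltv1, a small subunit assembly factor, by -1.64. Of 15 regulators of ribosome production 2 (13.3%) were lower and 4 (26.7%) higher by at least 1, against 22.3% and 19.1% of all genes measured. Their median of -0.33 was 0.07 in cells whose Gapdh ratio did not exceed 3. Mxd4, a partner of Max that opposes Myc, was found in 2 WT and 8 N1-CKO cells and differed by 4.20, Tsc1, an inhibitor of mTOR signalling, by 1.38, the kinase gene Akt1 by -1.06 and Larp1 by -0.76. Tsc1 was at -2.10 within the high 18S set. Of 73 mitochondrial ribosomal proteins, which serve the separate ribosomes of mitochondria, 19 were lower and 11 higher by at least 1 (26.03% and 15.07%), near the 22.3% and 19.1% of all genes measured. Their median was -0.13, with 40 lower and 33 higher. The 4 largest differences were all negative: Mrpl41 differed by -4.00, Mrpl40 by -2.97, Mrpl17 by -2.76 and Mrpl18 by -2.73. Of the 76 on the array 3 were detected in at least 20 cells, again near 3.23%.

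G2/M signal differed widely between these cells, and its correlation with the mean ribosomal protein level was weak over all cells and changed sign with the scale. Of 35 G2/M and mitosis genes measured in at least 2 cells, 33 (94.3%) were lower by at least 1 in N1-CKO cells, against 22.3% of all genes measured. The G2/M level of a cell, the mean of the 35, was 10.20 ± 2.52 for WT and 7.03 ± 1.66 for N1-CKO. The mean level of the 50 members correlated with this G2/M level with Pearson r = -0.19 and Spearman rho = -0.11 over 26 cells. Within the 13 WT cells r was -0.16 and within the 13 N1-CKO cells 0.03. It was 0.09 within the high 18S set, -0.34 within the low set and -0.43 in the 19 cells whose Gapdh ratio did not exceed 3, and -0.0003 without the 2 cells farthest from the median. For the mean of the 37 widely detected members r with G2/M was -0.19 as deposited and 0.18 after quantile normalization. The sign thus depends on the scale between arrays. With the mean of 25 G1/S and replication genes r was 0.08 for the 50 members, 0.47 within the high and -0.13 within the low 18S set. For the 37 widely detected members r with the G1/S level was 0.02 as deposited and 0.42 after quantile normalization. That normalized r was 0.56 within WT and 0.40 within N1-CKO cells, and 0.60 among high and 0.31 among low 18S arrays. Cells share chemistry and possibly animals, so these are descriptions.

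**Figure D5:**
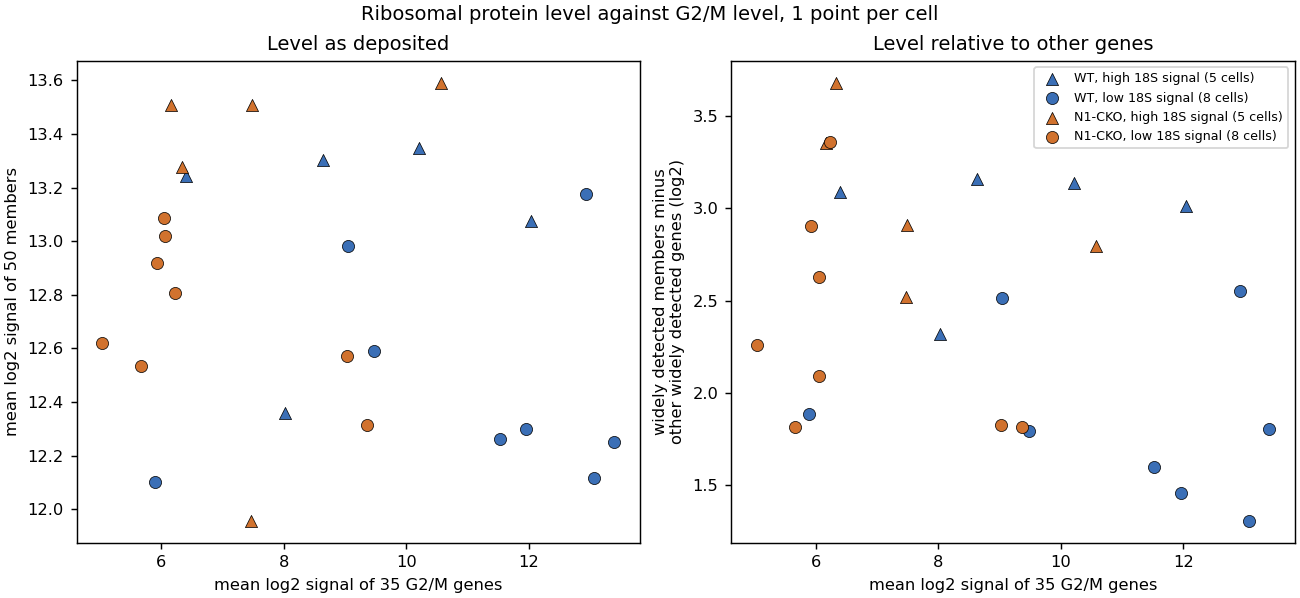
Mean log2 signal of the 50 members (left) and mean of the 37 widely detected members minus that of the other 551 widely detected genes (right) against the mean log2 signal of 35 G2/M genes, 1 point per cell; colours give the group, triangles the high and circles the low 18S set. WT cells reach the highest G2/M levels, and member levels at the left and right ends of the axis overlap.

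WT cells 2 and 5 had the highest G2/M levels, 13.06 and 13.40, with 32 and 33 of the 35 genes detected, and member levels of 12.12 and 12.25. N1-CKO cell 13, with 0 G2/M genes detected and a G2/M level of 5.04, had a member level of 12.62. WT cell 3, with a G2/M level of 12.93, had 13.18, so cells with high G2/M levels lay in both the lower and the upper part of the range of all cells, 11.96 to 13.59. Relative to the other widely detected genes, the level of the 37 members correlated with G2/M with r = -0.38 and rho = -0.30. That r was -0.36 within WT and -0.21 within N1-CKO cells, where rho was 0.08. It was -0.24 among high and -0.50 among low 18S arrays, and -0.66 in cells whose Gapdh ratio did not exceed 3.

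Gene by gene, r with the G2/M level was negative in 30 of the 37 widely detected members and positive in 7, with a median of -0.17, from -0.39 in Rpl13a to 0.40 in Rpl22l1. Among the other 551 widely detected genes it was positive in 58.3%, with a median of 0.04. After quantile normalization 24 of the 37 members (64.9%) were positive, with a median of 0.08, against 69.7% and 0.11 for the others. The sign in most members thus changed with the scale, while their median stayed slightly below that of the others. The level relative to other widely detected genes of the same array had r = -0.38, as given above. The cause was not tested. Rpl22l1 had 0.52 after quantile normalization, and 3.09% of the other widely detected genes had a higher r on the deposited scale. Within WT cells its r was -0.08 and within N1-CKO cells 0.25; with the group means removed it was 0.08. For comparison, the mean level of mitochondrial ribosomal proteins correlated with G2/M with r = 0.41 and that of ribosome biogenesis genes with r = 0.56 over the same cells, both on the deposited scale. Among high 18S arrays these were 0.15 and 0.14, among low ones 0.52 and 0.70, and in cells whose Gapdh ratio did not exceed 3 they were 0.33 and 0.28. They are correlations of a list's mean level, for which the 37 widely detected members had -0.19. Taken gene by gene, the median r was 0.054 for mitochondrial ribosomal proteins and 0.131 for biogenesis genes, against 0.049 over all genes measured.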

How the data were processed

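The deposited table holds MAS5 signal intensities of 26 arrays, 1 cell each; MAS5 is named by the submitters' processing notes, its version and settings not given in the sources used here. The authors scaled the arrays alike: the mean after trimming 2% at each end is 500.0 in every column. Each array's precision is limited to 1 reading per probe set, and RNA was amplified by oligo(dT) priming and PCR, per the labels' protocols, which reads near 3′ ends. Of 45101 probe sets, 64 controls and 932 with several symbols were set aside; each gene was read by its probe set of highest mean log2 signal. Values under 25.02 were raised to it. A gene counts as measured when detected in at least 2 of the 26 cells, in either group or both. Correlations and differences were computed with numpy 2.4.6, pandas 2.3.3 and scipy 1.17.1, with no test, and checked on simulated data.

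Members and lists were chosen with earlier results of these data known. Members named were the 6 brightest and 6 dimmest, the 5 smallest and 5 largest SDs among those detected in at least 13 cells, the 6 highest and 6 lowest differences among those detected in at least 6 cells, paralogs and stalk proteins, 30 in all. Of each other list up to 4 genes with the largest differences are named. Alternatives varied the detection percentile, floor, scale, probe sets, average and cells. Promoter entries are RefSeq's.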

Additional observations from a re-analysis of the deposited data

How the results depend on the processing

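No paired analysis was possible because the numbers in the labels only name single cells and no result comes from a test. Of the members named by rule with a difference of at least 1, Rpl22l1, Rps2 and Rpl10a kept its sign under every alternative that gave a value. Each of these genes was read by only 1 probe set, an _x_at one for Rps2 and an _a_at one for Rpl22l1 and Rpl10a. Averaging probe sets could therefore not change them, and leaving out that ending gave no value. Rpl7l1, which has several probe sets, turned to -0.59 with the mean of all of them. The count of members detected per cell, 37.65 on average, was 39.5 at the 80th and 35.7 at the 95th percentile, 30.2 without _x_at and _s_at probe sets and 8.88 without _a_at as well, since fewer members were read. The last choice also left 7 members in at least 20 cells, 2 higher by at least 1, and a median pairwise correlation over all members of 0.10, against 0.32. That correlation was 0.056 after quantile normalization, 0.018 within the high 18S set and 0.51 over widely detected members. Members lower and higher by at least 1 numbered 7 and 7 in the high 18S set, which has 5 cells of each group. The share over all genes in that set is not given here, so these counts are not read as a result about members. The correlation with G2/M was 0.18 after quantile normalization, 0.091 within the high 18S set and -0.43 at a Gapdh ratio of at most 3; the cause was not tested. Quantile normalization also took the difference in mean member level from 0.20 to -0.03, within the spread between cells.

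Leaving out each cell in turn gave 37.6 to 37.88 members per cell, 37 in at least 20 cells each time, 2 to 3 lower and 3 to 6 higher, a median difference of 0.12 to 0.32, a difference in level of 0.14 to 0.28, a median SD of 0.95 to 1.19, a pairwise correlation of 0.29 to 0.35 and a correlation with G2/M of -0.27 to -0.10. Cells cannot stand for animals, and 1 array per cell limits the precision of each value. Leaving out _x_at and _s_at probe sets, leaving out WT cell 9 with N1-CKO cell 10, the comparison with other widely detected genes and that over widely detected members were chosen after seeing the data.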
